A study of Bos grunniens with 18 samples.

Results

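Cell junction genes encode the proteins that join neighbouring cells in the ovary. The set was defined by 10 gene symbols (GJA1, GJA4, GJC1, JAM2, JAM3, CLDN5, CDH1, CDH2, CDH5 and TJP1), matched to the symbols of the expression table. Only the opening part of this table was analysed here, 173 genes with values, of which 135 lie on chromosome 1. Ranks and shares below are within these genes, not within all genes of the ovary. Of the 10 symbols, 1 gene, JAM2, was found among the 173, and the other 9 were not analysed here. The account below is therefore an account of JAM2, with the other junction genes of the table set beside it. Ovaries of healthy yaks (Bos grunniens, 6 years old, 1 farm) were taken within an hour of death in anestrus (April, YO-A), estrus (August, YO-F) and pregnancy (December, YO-P). RNA of whole ovarian tissue was selected for poly(A), fragmented, and either sequenced as input or first immunoprecipitated with an antibody against N6-methyladenosine (m6A), a methyl mark on adenosines of mRNA. Each stage had 3 input and 3 immunoprecipitated libraries. Since a stage corresponds to a single month, season and stage cannot be told apart. The yaks were euthanized and each stage was collected in its own month, so no animal can be in more than 1 stage.

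Gap junctions are channels of connexins through which granulosa cells pass small molecules to each other and to the oocyte. Tight junctions and adherens junctions seal and hold cell layers together, including the endothelium of the vessels that supply follicle and corpus luteum. JAM2, junctional adhesion molecule 2, is a membrane protein of the immunoglobulin superfamily known from tight junctions of endothelial cells, where it binds JAM3 on the opposite cell and takes part in the passage of leukocytes.

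Expression was given as FPKM (fragments scaled by the exon length of the gene and the mapped reads of the library), which holds no counts, so the number of fragments behind a value is unknown. Library estrus replicate 2 (YO-F2), which the study left out after its principal component analysis, is given apart in the expression values. The minimum mean FPKM for a gene to be tested was nevertheless taken over all 9 libraries. In the estrus peak list this replicate could not be set apart. Of 91 genes at 1 FPKM or more in all 8 other libraries, 19 fell below 50% of the lowest of these in estrus replicate 2, against 0 to 1 genes when each other library was set against the remaining 7 in the same way. The identity of the tissue could not be checked against marker genes, since 0 of 68 markers of 10 ovarian cell types are among the 173 genes.

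JAM2 (ENSBGRG00000000059) lies on the plus strand of chromosome 1, at 27413396 to 27506203 in the coordinates of the deposited table. In anestrus, JAM2 had an FPKM of 43.5 in replicate 1, 52.2 in replicate 2 and 44.3 in replicate 3. In estrus, JAM2 had 53.9 in replicate 1 and 50.2 in replicate 3, while estrus replicate 2 had 7.88. In pregnancy, the FPKM was 33.1 in replicate 1, 57.4 in replicate 2 and 44.1 in replicate 3. The lowest and the highest of the 8 libraries were thus both pregnancy libraries, and the values of the 3 stages overlapped. By mean FPKM over the 8 libraries, which is a level per exon length, JAM2 was the gene with rank 16 of 173.

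**Figure D1:**
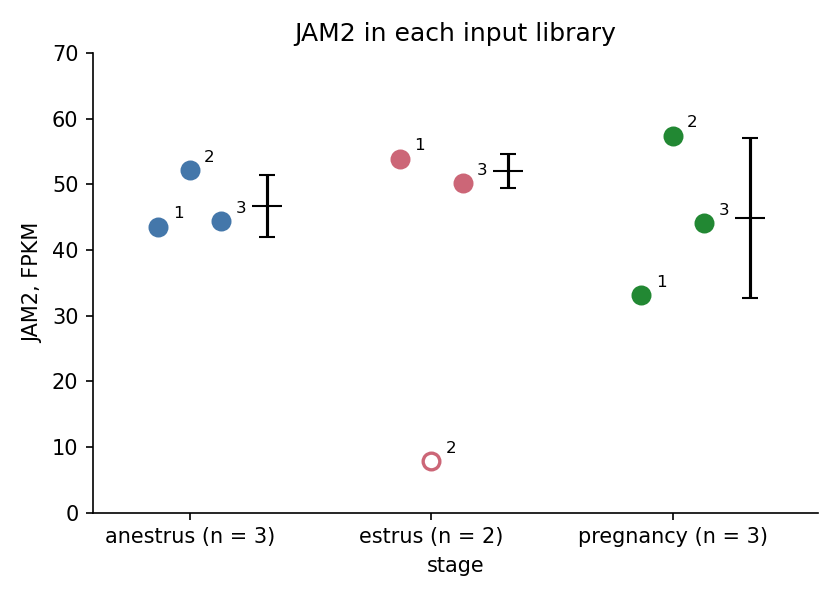
FPKM of JAM2 (vertical axis, linear from 0) in each of the 9 input libraries by stage, with replicate numbers beside the points and the mean and SD of each stage as bars. The open point is estrus replicate 2 at 7.88, which is not in the estrus mean, and the other 8 libraries lie between 33.1 and 57.4.

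The stage means of JAM2 were 52.0 ± 2.64 FPKM in estrus (SD, n = 2), 46.7 ± 4.77 in anestrus (SD, n = 3) and 44.9 ± 12.2 in pregnancy (SD, n = 3). In this order, the library values of neighbouring stages overlapped, although the means of estrus and anestrus lay further apart than either SD. The coefficient of variation of JAM2 was 27.1% in pregnancy, 10.2% in anestrus and 5.08% in the 2 estrus libraries. Over the 8 libraries, the highest value was 1.73 times the lowest, and the SD of log2(FPKM + 0.1) was 0.25. Ordered from the smallest SD, JAM2 was at place 44 of 105 genes with a mean of at least 1 FPKM, for which the median SD was 0.28. The level of JAM2 thus varied between these libraries about as much as that of the median gene of this set. The set includes genes of much lower level than JAM2, and genes of similar level were not compared apart. These are bulk libraries, in which fewer cells that carry JAM2 and less JAM2 RNA per cell cannot be told apart.

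JAM2 did not pass the study's standard for differential expression (an unadjusted p under 0.05 together with a log2 fold change of 1 or more in either direction) in any of the 3 comparisons. In YO-FvsA, JAM2 had a log2 fold change of 0.16 on the log2(FPKM + 0.1) scale (standard error 0.21, 95% interval -0.32 to 0.64, adjusted p = 0.863 from limma over 130 genes). The exact two-sided permutation test of the 2 estrus against the 3 anestrus libraries gave p = 0.3. In YO-FvsP, the log2 fold change of JAM2 was 0.25 (standard error 0.21, 95% interval -0.23 to 0.73, adjusted p = 0.739 from limma), with an exact permutation p of 0.6. In YO-PvsA, it was -0.09 (standard error 0.19, 95% interval -0.52 to 0.34, adjusted p = 0.910 from limma), with an exact permutation p of 0.8. The smallest p that the exact test can give with these numbers of libraries is 0.1. All 3 intervals lay inside a change of 1 log2 unit in either direction, so a doubling of JAM2 lies outside the 95% interval of each comparison over the 8 libraries.

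As background, 1.54% of the 130 genes tested passed the study's standard in the comparison of estrus with anestrus, 2.31% in that with pregnancy and 2.31% for pregnancy against anestrus. These were 2, 3 and 3 genes, and JAM2 was not one of them. No gene reached a limma adjusted p under 0.05 in any comparison, while 12, 12 and 4 genes (9.23%, 9.23% and 3.08%) had an unadjusted p under 0.05. The unadjusted limma p of JAM2 was 0.466, 0.268 and 0.650 in the same order. By absolute log2 fold change, JAM2 was at place 84, 62 and 104 of the 130 genes, counted from the largest change.

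When estrus replicate 2 was counted as an estrus library, the direction of both estrus comparisons turned. The mean of estrus became 37.3 ± 25.6 FPKM (SD, n = 3). The log2 fold change of JAM2 was then -0.74 in YO-FvsA (95% interval -2.22 to 0.74, adjusted p = 0.629 from limma) and -0.65 in YO-FvsP (95% interval -2.13 to 0.83, adjusted p = 0.634 from limma). These intervals are wider than those over 8 libraries and no longer lie inside a change of 1 log2 unit. Pregnancy replicate 1, the lowest of the other 8 libraries, also decided a direction. Without it, the log2 fold change of JAM2 in YO-PvsA was 0.11 in place of -0.09, and that in YO-FvsP was 0.05 in place of 0.25. Without pregnancy replicate 2, the log2 fold change in YO-FvsP was 0.44 (unadjusted p = 0.0360 and adjusted p = 0.519 from limma, the latter ranging from 0.519 to 0.972 over the alternatives of this comparison). Without that library the log2 fold change in YO-PvsA was -0.28. In none of these fits did JAM2 pass the study's standard.

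**Figure D2:**
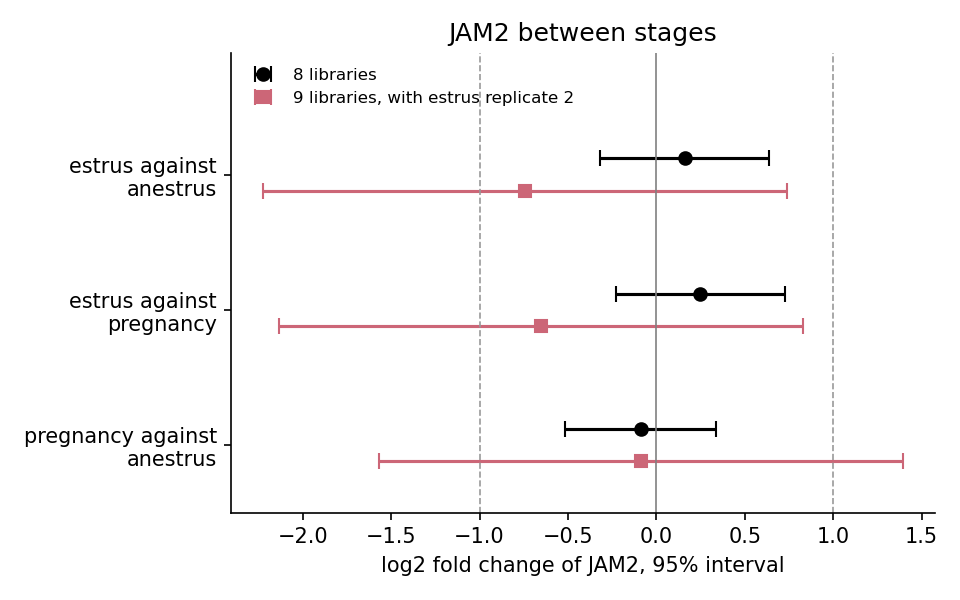
Log2 fold change of JAM2 on the log2(FPKM + 0.1) scale (horizontal axis) in the 3 comparisons of stages, with limma's 95% interval, over 8 libraries (circles) and over 9 libraries with estrus replicate 2 (squares); dashed lines mark a change of 1 log2 unit. Over 8 libraries the values are 0.16, 0.25 and -0.09, and with estrus replicate 2 both estrus comparisons move below 0.

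In estrus replicate 2, the 7.88 FPKM of JAM2 were 23.8% of the lowest other library and 16.7% of the median of the other 8. The lowest of the other libraries was thus 4.20 times as high. Among the 91 genes at 1 FPKM or more in all other libraries, JAM2 had place 11 from the lowest when ordered by this share of the lowest other library. The next lowest value of JAM2, in pregnancy replicate 1, was 76.0% of the lowest of the remaining 7 libraries. Estrus replicate 2 is 1 library, so its difference from the others has no replicate check.

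None of the 4 genes next to JAM2 on chromosome 1 was below 98.6% of its lowest other library in estrus replicate 2. MRPL39, a protein of the mitochondrial ribosome, lies upstream on the other strand and had an FPKM of 16.9 in estrus replicate 2 and 15.6 to 18.5 in the other libraries. ENSBGRG00000000060, which has no symbol in the table, had 126 in estrus replicate 2 and 86.6 to 117 in the others. GABPA, a transcription factor subunit, had 8.25 against 8.16 to 11.8. APP, the amyloid precursor protein, had 211 against 213 to 345. A ratio between genes of 1 library does not depend on the scaling of that library. The ratios below were chosen after the values were seen, with neighbours inside their own range, so they largely restate the low JAM2 value. The part of scaling in that value was not tested. The ratio of JAM2 to MRPL39 was 0.467 in estrus replicate 2 and 1.91 to 3.67 in the other 8 libraries. The ratio of JAM2 to GABPA was 0.955 against 3.03 to 5.66.

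Of 91 other junction genes listed for gap, tight and adherens junctions, desmosomes and junction scaffolds, 3 are among the 173 genes. These are NECTIN3, CLDN8 and CLDN17. A wider set was formed from the annotation columns of the table, taking each gene with a tight, adherens or cell-cell junction term. It held 11 genes beside JAM2, APP among them, of which 7 passed the minimum mean of 0.1 FPKM. In each of the 3 comparisons, 0 of these 7 passed the study's standard in either direction, and 0 had an unadjusted p under 0.05 from limma. Their median log2 fold change was 0.03 for estrus against anestrus, 0 for estrus against pregnancy and -0.12 for pregnancy against anestrus. CLDN8 was tested only because estrus replicate 2 lifted its mean, and without it the medians of the other 6 genes were 0.09, -0.0024 and -0.10. The medians of all 130 genes tested were 0.07, 0.07 and -0.03.

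NECTIN3, an adhesion molecule of adherens junctions, had 4.31 ± 1.22 FPKM in anestrus (SD, n = 3), 3.61 ± 0.452 in estrus (SD, n = 2) and 3.97 ± 0.346 in pregnancy (SD, n = 3). CXADR, an immunoglobulin-like adhesion molecule of tight junctions, had 2.78 ± 0.696 in anestrus (SD, n = 3), 3.05 ± 0.447 in estrus (SD, n = 2) and 2.40 ± 0.598 in pregnancy (SD, n = 3). VANGL2, a planar cell polarity protein, ranged from 3.97 to 7.53 FPKM over the 8 libraries. In estrus replicate 2, NECTIN3 had 4.32, CXADR had 2.32 and VANGL2 had 6.21, each inside the range of the other libraries. APP, which also has a cell-cell junction term, was just below its range, as given above.

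The claudins are membrane proteins that set the permeability of tight junctions in epithelia. CLDN8 was listed at 0 in 7 of the 8 libraries, with 0.197 FPKM in anestrus replicate 1, and had 1.79 in estrus replicate 2. It passed the minimum mean of 0.1 FPKM only through estrus replicate 2. CLDN17 was listed at 0 in 8 of 9 libraries and had 0.0578 FPKM in estrus replicate 1. TIAM1, an exchange factor for the GTPase Rac with a tight junction entry in the annotation, had 6.01 FPKM in estrus replicate 2 and 0.325 to 1.28 in the others. ENSBGRG00000000079, annotated to adherens junctions without a symbol, had 0.404 in estrus replicate 2 and 1.29 to 6.51 in the others. Among junction genes, estrus replicate 2 was thus below the range of the others in JAM2, ENSBGRG00000000079 and, at 98.6% of the lowest other library, APP, and above it in TIAM1. Values outside the range were common in this library and are not particular to junction genes. Of 91 genes at 1 FPKM or more in all other libraries, 35 were below the lowest and 21 above the highest of these. CLDN8 is not counted here, since its value in this library let it pass the minimum. With 0 of the marker genes of other cell types in the table, the part of such cells in these differences was not tested.

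**Figure D3:**
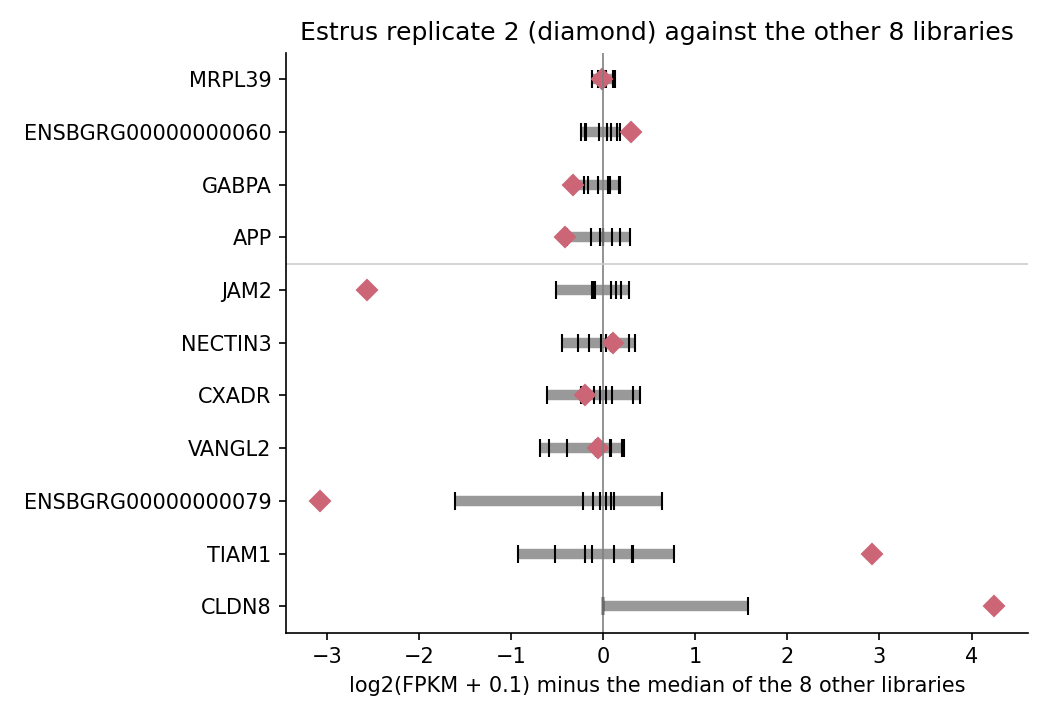
Log2(FPKM + 0.1) of 11 genes minus the median of the 8 libraries without estrus replicate 2 (horizontal axis), with 1 tick per library, a grey bar over their range and a diamond for estrus replicate 2. Above the grey line are the neighbours of JAM2 on chromosome 1, below it JAM2 and other junction genes; JAM2 has 7.88 FPKM in estrus replicate 2, where its neighbour MRPL39 has 16.9.

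Among 81 genes with a symbol and a mean of at least 1 FPKM, the 3 whose log2(FPKM + 0.1) followed JAM2 most closely over the 8 libraries were F3, RWDD2B and TIAM1. These correlations are across 8 libraries that share their scaling and were not tested. F3, the tissue factor that starts blood coagulation, had a Pearson r of 0.77 with JAM2 and a Spearman rho of 0.88, and r was 0.65 over the 6 libraries left without pregnancy replicates 1 and 2, the libraries farthest from the median of JAM2. F3 had 2.20 to 8.25 FPKM in the 8 libraries and 1.40 in estrus replicate 2, so it was also below their range there. RWDD2B had an r of 0.71 and a rho of 0.24, but its r was -0.22 over the 6 libraries, so its likeness did not hold there. RWDD2B had its lowest value of the 8 libraries, 9.84 FPKM, in pregnancy replicate 1. In pregnancy replicate 2 it had 14.3, close to the 14.3 of anestrus replicate 1. The 2 libraries were left out together, so the part of each was not tested. TIAM1 had an r of 0.70, a rho of 0.52 and an r of 0.64 over the 6 libraries. TIAM1 reached a mean of 1 FPKM only through estrus replicate 2, and with the mean taken over the 8 libraries the gene in its place was RCAN1, with an r of 0.64. In estrus replicate 2, where JAM2 was low, RWDD2B had 36.8 FPKM against 9.84 to 15.4 in the others, so RWDD2B was above the range of the others there. Of 91 genes at 1 FPKM or more in all other libraries, 35 were below and 21 above the range in this library.

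The m6A peaks of each stage were deposited as 1 list per stage, in which replicates cannot be separated. The part of estrus replicate 2 in the estrus peaks is therefore unknown. No peak was assigned to JAM2 in the anestrus, estrus or pregnancy list, and 0 peaks overlapped its coordinates in any of them. JAM2 ends at 27506203 on the plus strand. The estrus list runs in order of position past this point. In the pregnancy list, positions start over once, and the first run of 238 peaks passes JAM2, while 42 of the 44 peaks of the second run are in minus-strand genes. In the anestrus list, the 9 complete peaks end at 22449705, before JAM2, and only the next peak, whose line is incomplete, lies past it. The first peak after JAM2 belonged to GABPA in every list and began at 27544221 in anestrus (the incomplete line), 27529677 in estrus and 27555041 in pregnancy. The last peak before JAM2 was in NCAM2 in anestrus (22428117 to 22449705, fold enrichment of immunoprecipitation over input 2.05) and in CXADR in estrus (18044582 to 18071143, fold enrichment 2.89). In pregnancy it was in ENSBGRG00000000034 (16667373 to 16680127, fold enrichment 7.56). The log10 false discovery rate of this peak was -1.07, weaker evidence than the -2.43 of the NCAM2 peak and the -3.26 of the CXADR peak. JAM2 was thus a gene of 33.1 to 57.4 FPKM in the 8 libraries without a listed peak, whereas GABPA, at 8.16 to 11.8 FPKM, had peaks in estrus and pregnancy and the peak of the incomplete line in anestrus. GABPA is 1 gene, named as the first with a peak after JAM2. The share of expressed genes without a listed peak was not counted, so the lack of one may not set JAM2 apart. The depth of the immunoprecipitated libraries is not given in the lists, so a missing peak means that none was listed, not that the transcript carried no m6A.

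Of the other junction genes, CXADR had its peak in the 3′ UTR in the estrus list (log10 false discovery rate -3.26) and none in the anestrus and pregnancy lists, which both run past this gene. This difference between lists was not tested, since the lists have no replicates. NECTIN3 had an exonic peak in pregnancy (60480881 to 60481060, fold enrichment 4.09, log10 false discovery rate -56.7). TIAM1 had an exonic peak in pregnancy (34598699 to 34599087, fold enrichment 7.56), with a log10 false discovery rate of -0.77, which is weak evidence for a peak. TIAM1 is on the minus strand, and the parts of the anestrus and estrus lists analysed here hold peaks of plus-strand genes only (9 and 18 complete peaks), so they say nothing of TIAM1. Neither of them reaches the position of NECTIN3.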

How the data were processed

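The authors filtered reads with fastp, aligned them with HISAT2 (version 2.0.4 per the submitters' processing notes) to the Bos grunniens genome, quantified genes with StringTie and deposited FPKM values for 9 input libraries, with no further scaling stated. The authors deposited the m6A peaks with a fold enrichment as a ratio of immunoprecipitation over input and a score holding the log10 of the false discovery rate, annotated with ChIPseeker 1.18.0. The peak caller is not given in the sources used here. Tables of the authors' own peak comparisons (log2 fold change, p and false discovery rate between stages) were not used. The analysis covers the opening part of every file, namely 173 genes of the expression table, after 1 line without values was left out, and 9, 18 and 282 complete peaks in anestrus, estrus and pregnancy. The last line of each list is incomplete, and of these only the position of an anestrus peak in GABPA was used. Of the genes, 135 lie on chromosome 1. Of 106 symbols, 95, JAM2 among them, are also in the RefSeq gene table, from which no coordinate was taken. No sequence was printed.

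Log2(FPKM + 0.1) of the 130 genes with a mean of at least 0.1 FPKM over 9 libraries was compared with limma 3.58.1 in R 4.3.3 (moderated, with a trend on mean expression), with the 3 stages in one fit of 8 libraries without YO-F2, as in the study. The study used edgeR, a test for counts, and a log-scale test was used here because FPKM are not counts. P-values were adjusted over all 130 genes (Benjamini-Hochberg). The permutation tests enumerated every arrangement of the libraries, using the absolute difference of mean log2 values. The labels do not say whether replicates come from separate animals, and p-values measure the spread between these libraries. Python 3.11.15 with numpy 2.4.6, pandas 2.3.3 and matplotlib 3.10.9 was used for values and figures. The fit was tested on simulated data. The members, lists, tests and alternatives were chosen with earlier results of these data known. The set of genes with a junction annotation, the neighbours of JAM2 and the ratios between genes were chosen after the values were seen. The rule for named genes took all members, the 3 genes with a symbol and a mean of at least 1 FPKM most correlated with a member, and listed junction genes past the study's standard, of which there were none.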

Additional observations from a re-analysis of the deposited data

How the results depend on the processing

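JAM2 did not pass the study's standard in any of 48 alternative fits, which used pseudocounts of 1 and 0.01, no minimum or a minimum mean of 1 FPKM, estrus replicate 2 included, median-ratio scaling, only the 2 stages compared, the replicate number as a block, and each of the 8 libraries left out. Its direction was kept in 45 fits and reversed in 3. Part of these 45 could not change the log2 fold change and repeated the main value. They were the fits with another minimum or only the 2 stages, and those leaving out a library of the third stage. For pregnancy against anestrus, the fits with estrus replicate 2 and with the replicate block also repeated it. The count of 45 is thus no measure of how stable the direction was. With estrus replicate 2 the log2 fold change was -0.74 in YO-FvsA and -0.65 in YO-FvsP. Leaving out 1 library gave 0.11 to 0.24 for the first comparison, 0.05 to 0.44 for the second and -0.28 to 0.11 for pregnancy against anestrus, where the value of 0.11 came without pregnancy replicate 1; where 1 estrus library remained, it was assumed to vary like the other stages. The cause of these reversals was not tested beyond the libraries named. With median-ratio scaling the log2 fold change was 0.06 for estrus against anestrus, 0.15 for estrus against pregnancy and -0.09 for pregnancy against anestrus. With the replicate block the log2 fold change was 0.30 for estrus against anestrus, 0.39 for estrus against pregnancy and -0.09 for pregnancy against anestrus, which changed no call. Deviations from the stage mean in same-numbered libraries of different stages had an r of -0.17 to 0.39 across genes, above 0.1 in 1 of 7 pairs. With 2 estrus libraries, these deviations are exact opposites of each other, so the values of r cannot decide whether such libraries vary together. Since the stages came from different animals, the numbers were not taken to pair the samples. The estrus mean of JAM2 was 48.6 FPKM with median-ratio scaling and 37.3 with estrus replicate 2, 2 alternatives chosen after seeing the data. The number of JAM2 peaks was 0 in every list, also with a log10 false discovery rate of at most -2 or with assignment by overlap. The fragments behind an FPKM are unknown, and with 2 estrus libraries small changes of JAM2 could not be seen.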
